A study of Mus musculus with 4 samples.

Results

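Acute-phase and inflammatory genes were examined in 4 kinds of mouse cell, each measured on 1 Affymetrix array. The set held 9 genes of 18193 named genes on the array, measured by 13 of 34945 named probe sets. They were Lcn2, Saa3, Il33, Ccl2, Cxcl1, Ereg, Ptgs2, Icam1 and Ifi27. The genes were chosen by their signals on the array labelled HB9-GFP+ (the HB9-labelled array), where several stood far above the other arrays, so every comparison that involves this array is a description of that choice and carries no test.

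The arrays carried RNA of undifferentiated embryonic stem (ES) cells, of sorted Sox1 neural stem cells, of cerebellar granule cells taken on postnatal day 6, and of sorted HB9-GFP+ cells, which are transgenic ES derivatives with a green fluorescent reporter for the motor neuron factor HB9. Per the labels' protocol, which all 4 samples share, HB9 reporter ES cells grew on embryonic fibroblasts treated with mitomycin C, in serum and 1000 U/ml leukemia inhibitory factor. Retinoic acid (0.1 uM), purmorphamine (0.2 uM) and sonic hedgehog were given to differentiating cells from day 5 to day 9, while the sort is dated to day 8. How the Sox1 cells were derived, whether the ES array came from the reporter line, and whether feeder cells were removed are not given in the sources used here. No array had a replicate, so no p-value was computed, and each difference is one between these arrays.

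The acute phase response is the rapid change in secreted proteins that follows infection or injury. Cytokines such as interleukin 1, interleukin 6 and tumour necrosis factor drive it through the transcription factors NF-kB, STAT3 and the C/EBP family. It is best known from the liver, but fibroblasts, endothelium and glia also make chemokines, adhesion molecules and prostaglandins in response to the same signals. Fibroblasts grown as feeder layers are a known source of such factors in ES cell culture.

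Promoter sequence was looked up for the 9 genes because 6 of them shared 1 pattern over the arrays. The RefSeq promoter table (GRCm38.p6) held 7 promoters for 6 of the 9 genes, Lcn2, Saa3, Ptgs2, Icam1, Cxcl1 and Il33. Those of Lcn2, Saa3 and Ptgs2, all high on the HB9-labelled array alone, are shown first, and that of Cxcl1, which was not, follows. The others with the shared pattern, Ereg, Ccl2 and Ifi27, had no promoter in it. Promoters of Icam1 and Il33, which also lacked that pattern, are not shown. Each run is the 250 bases before the transcription start, 5′ to 3′ on the gene's strand, and capitals mark the motif matches named after them. The intervals are chr2:32387740-32387989 (minus strand) for Lcn2, chr7:46715677-46715926 (minus strand) for Saa3, chr1:150099781-150100030 (plus strand) for Ptgs2 and chr5:90890995-90891244 (plus strand) for Cxcl1.
Lcn2: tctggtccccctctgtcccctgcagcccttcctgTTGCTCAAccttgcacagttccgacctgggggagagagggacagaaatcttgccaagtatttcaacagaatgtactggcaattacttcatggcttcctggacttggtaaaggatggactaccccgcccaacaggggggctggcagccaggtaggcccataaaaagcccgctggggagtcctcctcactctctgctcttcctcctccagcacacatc
Saa3: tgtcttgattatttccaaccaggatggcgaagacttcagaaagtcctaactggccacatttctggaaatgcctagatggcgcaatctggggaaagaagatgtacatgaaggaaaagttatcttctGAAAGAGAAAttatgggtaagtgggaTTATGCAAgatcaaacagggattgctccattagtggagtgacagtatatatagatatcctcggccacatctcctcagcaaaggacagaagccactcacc
Ptgs2: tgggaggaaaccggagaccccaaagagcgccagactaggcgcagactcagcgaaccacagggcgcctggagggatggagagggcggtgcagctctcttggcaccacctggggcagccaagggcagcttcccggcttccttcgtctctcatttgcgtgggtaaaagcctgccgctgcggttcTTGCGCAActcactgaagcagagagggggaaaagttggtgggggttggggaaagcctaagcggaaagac
Cxcl1: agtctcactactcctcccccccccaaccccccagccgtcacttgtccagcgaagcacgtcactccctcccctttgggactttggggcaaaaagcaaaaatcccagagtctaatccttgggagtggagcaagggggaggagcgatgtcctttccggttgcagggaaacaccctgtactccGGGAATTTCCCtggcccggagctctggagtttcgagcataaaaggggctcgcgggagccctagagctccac

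Motifs were searched on both strands of 300 bases, from 250 before to 50 after each start. The C/EBP core TTGCNNAA was present in 4 of the 7 promoters, those of Lcn2, Saa3 and Ptgs2 and 1 of 2 of Il33, and in 10.8% of all 32851 promoters of the table. With the first transcribed base as 0, it lay at positions -216 to -209 in Lcn2, -99 to -92 in Saa3 and -69 to -62 in Ptgs2. The kappaB consensus was found in Cxcl1 only, at positions -71 to -62 with an overlapping match on the other strand at -70 to -61, and in 4.51% of all promoters. The interferon-stimulated response element was found in Saa3 (3.44% of all promoters), the STAT site TTCNNNGAA in Icam1 (8.3%) and TATAAA in Icam1 and Il33 (13.6%). The AP-1 site TGANTCA was found in 0 of these promoters and in 7.81% of all. A match of letters is a description of the sequence and was not tested as a site.

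Signals are scaled linear intensities. As the low level served the average over arrays of the median log2 signal, which corresponds to 78.8, and a gene was detected from 157.5, which is 1 log2 unit higher. A gene was called higher or lower where its brighter signal passed detection and the gap was at least 4-fold, with values under the low level set to it. A fold against an array at or under the low level is given as "at least", and where the dimmer signal lay between both levels the signals are given without a fold. A gene counted as set apart on an array if this rule held against each of the other 3. Of several probe sets of a gene, the one brightest on average (log2) stands for it, and "detected" refers to that probe set unless another is named.

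The number of genes detected was similar, from 9330 to 9518 of 18193 per array. The ratio of 3′ to 5′ signal of the actin control ranged from 2.29 to 5.08 and that of the Gapdh control from 1.37 to 3.68, both highest on the Sox1 array. The label of the HB9-GFP+ array was checked against markers. Of 15 measured motor neuron markers 1 was detected there, Olig2 at 320.6, while all 20 measured pluripotency markers were detected on it, as on the ES array. The label thus goes against the markers, and "HB9-labelled" refers to the label only. Of 11 neural stem cell markers all were detected on the Sox1 array, but 7 also on each other array. Of 13 granule neuron markers 12 were detected on the granule array, 9 on the Sox1, 5 on the ES and 3 on the HB9-labelled array. Counts of detected markers thus separate these arrays only in part. The median signal was highest on the Sox1 array for the first list (2262) and on the granule array for the second (6180). The granule array also had all 8 astrocyte markers and 14 of 18 macrophage and microglia markers detected.

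**Figure D1:**
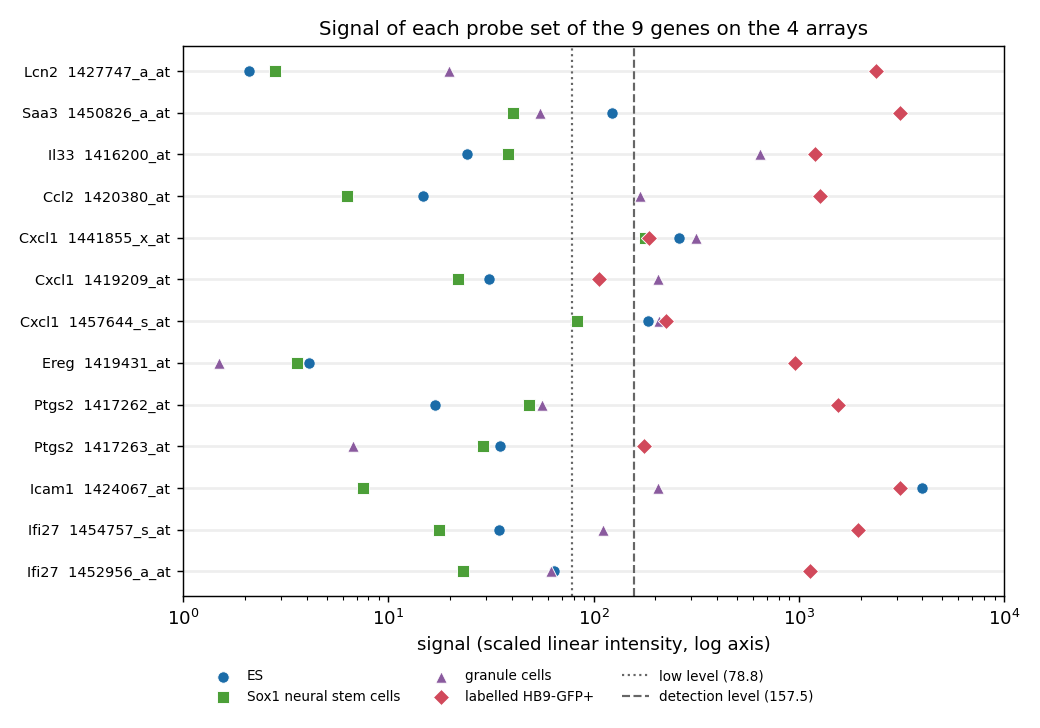
Signal of the 13 probe sets of the 9 genes (log axis) on the 4 arrays, 1 point per array, with the low level (78.8, dotted) and the detection level (157.5, dashed). The points of the HB9-labelled array lie alone on the right for Lcn2, Saa3, Ereg, Ptgs2 and Ifi27, while Icam1 is also high on the ES array and Il33 on the granule array.

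Lcn2 and Saa3 encode secreted acute-phase proteins. Lcn2 encodes lipocalin 2, which binds bacterial siderophores and so withholds iron. Its signal was 2374.2 on the HB9-labelled array, 19.7 on the granule array, 2.8 on the Sox1 array and 2.1 with ES cells. It was undetected on the last 3 and at least 30.1-fold higher on the HB9-labelled array than on each. Saa3 encodes serum amyloid A3, the family member made mainly outside the liver. It had a signal of 3104.9 on the HB9-labelled array, 122.6 on the ES array, 54.9 on the granule array and 40.4 with Sox1 cells. The ES value lay between the low and the detection level. Against the Sox1 and granule arrays Saa3 was at least 39.4-fold higher. Saa1, Saa2 and Saa4, its family members, were undetected on all 4 arrays, with signals of 44.1 or less.

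Il33, Ccl2 and Cxcl1 encode signals to immune cells, and their patterns differed. Il33 encodes interleukin 33, an alarmin held in the nucleus of fibroblasts, endothelium and glia and released on damage. Its signal was 1204.4 on the HB9-labelled array and 647.0 on the granule array, against 38.3 on the Sox1 array and 24.2 with ES cells. It was thus detected on 2 arrays, whose values differed 1.86-fold, short of a call. Ccl2, the chemokine that draws monocytes, was at 1261.9 on the HB9-labelled array, 168.3 on the granule array, 14.7 on the ES array and 6.3 on the Sox1 array. It was 7.5-fold higher on the HB9-labelled array than on the granule array, where it was barely detected, and at least 16-fold higher than on the other 2.

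Cxcl1, a chemokine for neutrophils, did not follow the others, and its 3 probe sets disagreed. The representing probe set, 1441855_x_at, was detected on all 4 arrays, at 315.7 on the granule array, 261.4 on the ES array, 186.9 on the HB9-labelled array and 178.6 on the Sox1 array. Its values lay within 1.77-fold of each other. Probe set 1457644_s_at gave 224.9 on the HB9-labelled array, 207.9 on the granule array, 184.4 on the ES array and 83.4 on the Sox1 array. Probe set 1419209_at, the only one with a RefSeq accession in the annotation, was detected on the granule array alone, at 206.5, with 106.3 on the HB9-labelled array, 30.8 on the ES array and 21.8 on the Sox1 array. The suffixes _s and _x mark probe sets whose probes may also match other transcripts. None of the 3 was called between any pair of arrays that includes the HB9-labelled array, so Cxcl1 had no call there.

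Ereg encodes epiregulin, a ligand of the epidermal growth factor (EGF) receptor family made in inflamed tissue. It was at 956.0 on the HB9-labelled array and under 5 on every other array, at 4.1 on the ES, 3.6 on the Sox1 and 1.5 on the granule array. The difference was at least 12.1-fold. The bound is set by the low level and not by those signals, which lie far under it and have no order.

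Ptgs2 encodes cyclooxygenase 2, the inducible enzyme of prostaglandin synthesis. Its brighter probe set, 1417262_at, was at 1555.8 on the HB9-labelled array, 56.2 on the granule array, 48.5 on the Sox1 array and 16.8 with ES cells, at least 19.8-fold higher. Its other probe set, 1417263_at, was detected on the same array only, at 175.5, with 35.1 or less elsewhere. That signal is just over the detection level and gave a log2 difference of 1.16, short of a call. Both probe sets had their highest value on the HB9-labelled array, but the size of the difference rests on 1 of them.

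Icam1 encodes the adhesion molecule that leukocytes grip on endothelium, and is also made by many other cells. It was at 3999.1 on the ES array and 3128.0 on the HB9-labelled array, which differed 1.28-fold, at 206.5 on the granule array and at 7.5 on the Sox1 array. It was therefore high on both arrays where all 20 pluripotency markers were detected, and not set apart on either. Ifi27, named for its induction by interferon, had 2 probe sets that agreed. The brighter, 1454757_s_at, was at 1949.9 on the HB9-labelled array, 111.3 on the granule array, 34.7 on the ES array and 17.6 on the Sox1 array. The other, 1452956_a_at, was at 1129.8, 62.2, 64.2 and 23.1 in the same order. Both were detected on the HB9-labelled array alone. The suffix _s of the brighter one marks probes that may also match other transcripts, which was not tested.

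Counted over the 9 genes, all 9 were detected on the HB9-labelled array, 4 on the granule array, 2 on the ES array and 1 on the Sox1 array. On the HB9-labelled array 6 were set apart, Lcn2, Saa3, Ptgs2, Ifi27, Ereg and Ccl2. Of all genes detected there, 0.804% were set apart, 75 in number. Since the choice of genes used these signals, nothing is read from that gap. Nearest to the threshold of 2 log2 units, Ccl2 lay inside at 2.91 and Il33 outside at 0.90, each against the next brightest array. Icam1 and Cxcl1 were at -0.35 and -0.76 by the same measure. None of the 9 was set apart on another array.

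By comparison, 7 of the 9 were called higher on the HB9-labelled array than on the ES array, where 2.00% of all detected genes were, and 0 lower (1.46%). Against the Sox1 array 8 were higher (5.58% of all) and 0 lower (6.89%). Against the granule array 7 were higher (9.21%) and 0 lower (12.3%). The median log2 difference of the 9 genes was 4.0, 4.30 and 3.92 in the same order, beside 0.04, 0.04 and 0.13 over all detected genes. These 3 comparisons share an array and were used by the choice of genes. The differences of 18 hybridisation control probe sets had an SD of 0.09 to 0.11 log2 units in them, and probe sets that share a gene differed with a pooled SD of 0.60 to 0.85. Neither holds biological variation.

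The 3 comparisons among the other arrays did not enter the choice directly. Still, a choice of genes that stood high on the HB9-labelled array favours genes that are low elsewhere. At or under the low level lay 6 of the 9 with ES cells, 8 with Sox1 cells and 4 with granule cells. A gene under that level on both arrays of a pair cannot be called, so nothing is read from the small number of calls. Of the 9, 2 were detected on the ES or Sox1 array. Icam1 was at least 50.8-fold lower on the Sox1 array, as were 5.21% of all detected genes by the 4-fold rule, and 0 were higher (6.20%). Between granule and ES cells 4 were detected, with Il33 at least 8.22-fold higher on the granule array (11.3% of all genes) and Icam1 19.4-fold lower (8.27%). In the granule and Sox1 pair Il33 was at least 8.22-fold higher (6.39%) and 0 were lower (3.65%). Ccl2 and Icam1 were at least 2.14-fold and 2.62-fold higher on the granule array there, without a call. With the low level 1 log2 unit down, both were called, which raised the count from 1 to 3.

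**Figure D2:**
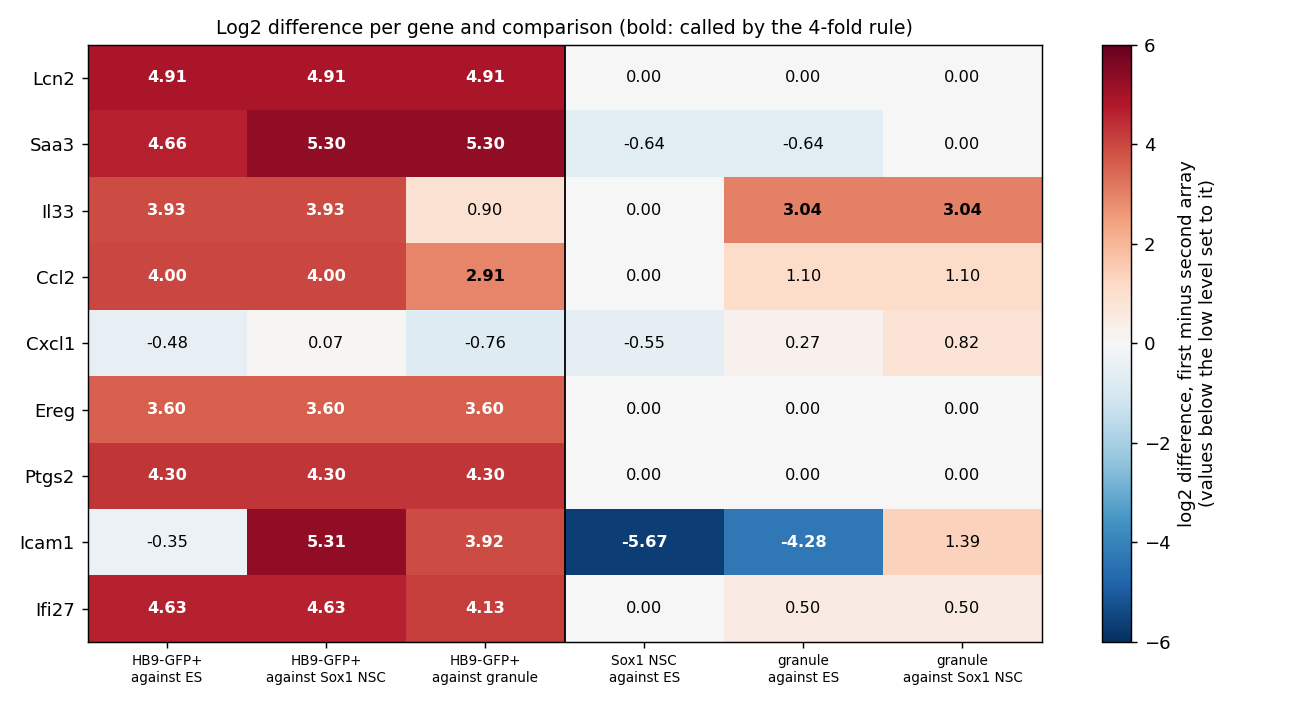
Log2 difference of each of the 9 genes (rows) in the 6 comparisons between arrays (columns), first minus second array, with values under the low level set to it and calls in bold. The left 3 columns are high for most genes, as the choice of genes fixes. The right 3 hold calls for Icam1 (-5.67 and -4.28) and Il33 (3.04) only, and the choice also bears on how few these are.

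Other genes of the same pathways were taken from 10 lists, with the 9 genes left out, which gave 199 measured genes. Of these 100 were detected on the ES array or the HB9-labelled array, and 14 were called higher on the latter and 1 lower, against 2.00% and 1.46% of all detected genes. Against the Sox1 array, with 97 detected on either, 19 were higher and 5 lower, beside 5.58% and 6.89% of all detected genes. Against the granule array, with 109 detected on either, 24 were higher and 11 lower, beside 9.21% and 12.3%. The median log2 difference of the 199 genes was 0.00 in each. A gene under the low level on both arrays has a difference of 0.00 by rule, so this median does not describe the detected genes. On the HB9-labelled array 8 of the 89 detected there were set apart, Hp, Mt2, Ccl11, Cxcl5, Osmr, Cebpd, Oas1a and Usp18, which is 8.99% beside 0.804% over all genes. Ccl11 and Usp18 passed narrowly, each at a log2 difference of 2.02 from the low level. The lists were drawn up with earlier results of these arrays known. With all probe sets of a gene averaged, 6 genes were called against ES, all higher.

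Most acute-phase genes typical of the liver were dark. Of 24 measured genes 5 were detected on the HB9-labelled array. Of the 5 detected on the ES or the HB9-labelled array 4 were called higher on the latter and 0 lower. Over all detected genes those shares were 2.00% and 1.46%. Hp, the haemoglobin scavenger haptoglobin, was at 897.1 there and at 18.5 or less on the other arrays. The metallothionein gene Mt2 was at 10331.4, against 1994.7 on the ES, 2135.1 on the Sox1 and 1046.0 on the granule array. Cp, the copper oxidase ceruloplasmin, was at 748.1, against 2.6 on the ES, 221.8 on the Sox1 and 176.1 on the granule array. By this representing probe set Cp had no call against Sox1, but its probe sets disagreed. Those at 517.0 and 538.5 on the HB9-labelled array were set apart there, with 27.9 and 42.3 on the Sox1 array. Another, at 586.2 against 147.7 on the Sox1 array, was not set apart. The remaining Cp probe sets were undetected on the HB9-labelled array, at 122.8 or less. The pentraxin gene Ptx3 was at 536.1 against 18.3, but also at 689.2 on the granule and 395.9 on the Sox1 array, and a second Ptx3 probe set stayed at 48.8 or less throughout. Genes of C-reactive protein (Crp), fibrinogen (Fga, Fgb, Fgg) and orosomucoid (Orm1, Orm2, Orm3) were undetected on all 4 arrays.

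Of 21 chemokine genes 8 were detected on the ES or the HB9-labelled array. Of these 3 were higher on the latter and 0 lower, beside 2.00% and 1.46% of all detected genes. The neutrophil chemokine gene Cxcl5 was at 643.8 on the HB9-labelled array and at 18.1 or less elsewhere. Ccl11, which draws eosinophils, was at 319.3 against 6.3 or less. Cxcl12, a chemokine of stromal cells, was at 1389.8 against 58.2 on the ES array, and at 2172.3 on the granule array, while its other probe sets were at 206.8 and 17.3 on the HB9-labelled array, without a call against ES. Against the granule array, with 11 detected on either, 2 chemokine genes were higher and 3 lower, beside 9.21% and 12.3% of all detected genes. The higher ones were Ccl11 and Cxcl5. The lower ones were Cxcl2 (26.2 against 1408.4), Ccl3 (43.0 against 589.2) and Ccl4 (57.8 against 402.4). Of 19 cytokine genes 1 was detected on the HB9-labelled array by its representing probe set, Lif at 262.2, and 0 on the ES array. With so few detected, nothing is read from the 0 calls against ES. The other Lif probe set was at 2.4 there, and a further probe set of Csf1 was detected at 193.2. The classic inducers of the acute phase did not pass the detection level on the HB9-labelled array. Il6 came close to that level, at 145.7, against 31.8 on the ES, 3.1 on the Sox1 and 15.7 on the granule array. Il1b was at 53.5, Il1a at 3.1 and Tnf at 6.3, and these were highest on the granule array, at 166.4, 165.7 and 103.4.

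Of 16 receptor genes for the products of the 9 genes, 6 were detected on the ES or the HB9-labelled array. Of these 0 were called higher and 0 lower, beside 2.00% and 1.46% of all detected genes. With so few genes at those shares, nothing is read from 0 calls. Against the Sox1 array 0 of 4 detected were higher and 2 lower, beside 5.58% and 6.89%. Against the granule array 0 of 6 were higher and 2 lower, beside 9.21% and 12.3%. The EGF receptor gene Egfr, through which epiregulin acts, was at 89.2 on the HB9-labelled array and at 2694.0 on the granule array by its representing probe set. Another Egfr probe set was detected on all 4 arrays, at 194.1 on the HB9-labelled array and 364.3 on the granule array. Erbb4, the other epiregulin receptor gene, was undetected on all 4, with a highest signal of 14.2. Ccr2, the receptor gene for Ccl2, and Cxcr2, that for Cxcl1, were undetected on all 4 arrays, at up to 102.3 and 18.1. Slc22a17, reported as a receptor for lipocalin 2, was at 89.0 on the HB9-labelled array and at 225.3, 401.2 and 1069.4 on the ES, Sox1 and granule arrays. The prostaglandin receptor gene Ptger4 was at 315.4 on the HB9-labelled array and 356.3 on the ES array. Itgal, a subunit of the integrin that binds Icam1, was at 248.9 and 242.5, while its partner subunit Itgb2 was undetected on all 4 arrays, at up to 89.1.

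Most regulators of these genes were not called between the ES array and the HB9-labelled array, where 2.00% of all detected genes were higher and 1.46% lower. Of 26 NF-kB pathway genes 21 were detected on either array. Of these 1 was higher, Tnfaip2, at 501.5 against 84.1, and 0 were lower. The list had a median log2 difference of -0.12. Tnfaip2 rested on 1 probe set, since its others were at 176.7 against 73.4, short of a call, and at 41.1 against 50.4. Nfkbia, the inhibitor gene that NF-kB itself induces, was at 6915.0 against 11188.0. Of 17 genes of the STAT3 and C/EBP list 13 were detected on either array, and 2 were higher and 1 lower (median over the list 0.03). Cebpd, a C/EBP factor of the acute phase, was at 572.5 against 36.4, and Osmr, the oncostatin M receptor gene, at 444.3 against 83.6. Each rested on 1 probe set, since the others of Cebpd (55.5) and Osmr (21.0 and 29.7) were undetected on this array. Lifr, the receptor gene for leukemia inhibitory factor, was lower, at 1469.6 against 6517.4. Stat3 was at 1189.0 against 1163.9 and Socs3, its feedback inhibitor gene, at 9437.5 against 10929.3. Against the Sox1 array 1 of 21 detected NF-kB genes was higher and 0 lower, beside 5.58% and 6.89% of all detected genes. Of 13 detected STAT3 and C/EBP genes 4 were higher there and 1 lower (median 1.14). Against the granule array 2 of 23 NF-kB genes were higher and 2 lower, beside 9.21% and 12.3%. Of 13 STAT3 and C/EBP genes 4 were higher and 1 lower (median 0.65).

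Of 36 measured interferon response genes other than Ifi27, 24 were detected on the HB9-labelled array, 18 on the ES array and 11 on each of the others. Against the ES array, with 25 detected on either, 2 were called higher and 0 lower (median log2 difference 0.41). Over all detected genes those shares were 2.00% and 1.46%. The higher genes were Oas1a, a sensor of double-stranded RNA, at 1599.8 against 272.2, and Usp18, a brake on interferon signalling, at 318.8 against 55.5. Of 24 detected on the Sox1 or the HB9-labelled array 7 were higher and 0 lower (median over the list 1.01), beside 5.58% and 6.89% of all detected genes. Of 25 detected on the granule or the HB9-labelled array 9 were higher and 1 lower (median 1.08), beside 9.21% and 12.3%. The lower gene was Ifit2, at 54.2 against 339.4. The antiviral genes Mx1 and Mx2 were undetected on all 4 arrays, at up to 35.6 and 8.8.

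The prostaglandin list had 0 of 17 genes called against the ES array, with 8 detected on either. Over all detected genes 2.00% were higher and 1.46% lower, so nothing is read from 0 calls among so few. The upstream phospholipase gene Pla2g4a was at 344.2 against 121.7, and the synthase genes Ptges and Ptges2 at 266.3 against 193.3 and 363.9 against 167.5. Of 16 EGF family genes 9 were detected on either array and 0 were called, from which nothing is read for the same reason. The ligand gene Hbegf was at 669.9 against 702.2, and the ligand genes Btc and Epgn were undetected on all 4 arrays. Of 16 leukocyte adhesion genes 7 were detected on either array. Of these 0 were lower and 2 higher, Vcam1 (390.3 against 4.0) and Cd44 (529.8 against 58.0). Both were detected on the granule array too, at 501.0 and 438.6, and each had other probe sets that were undetected or short of a call.

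**Figure D3:**
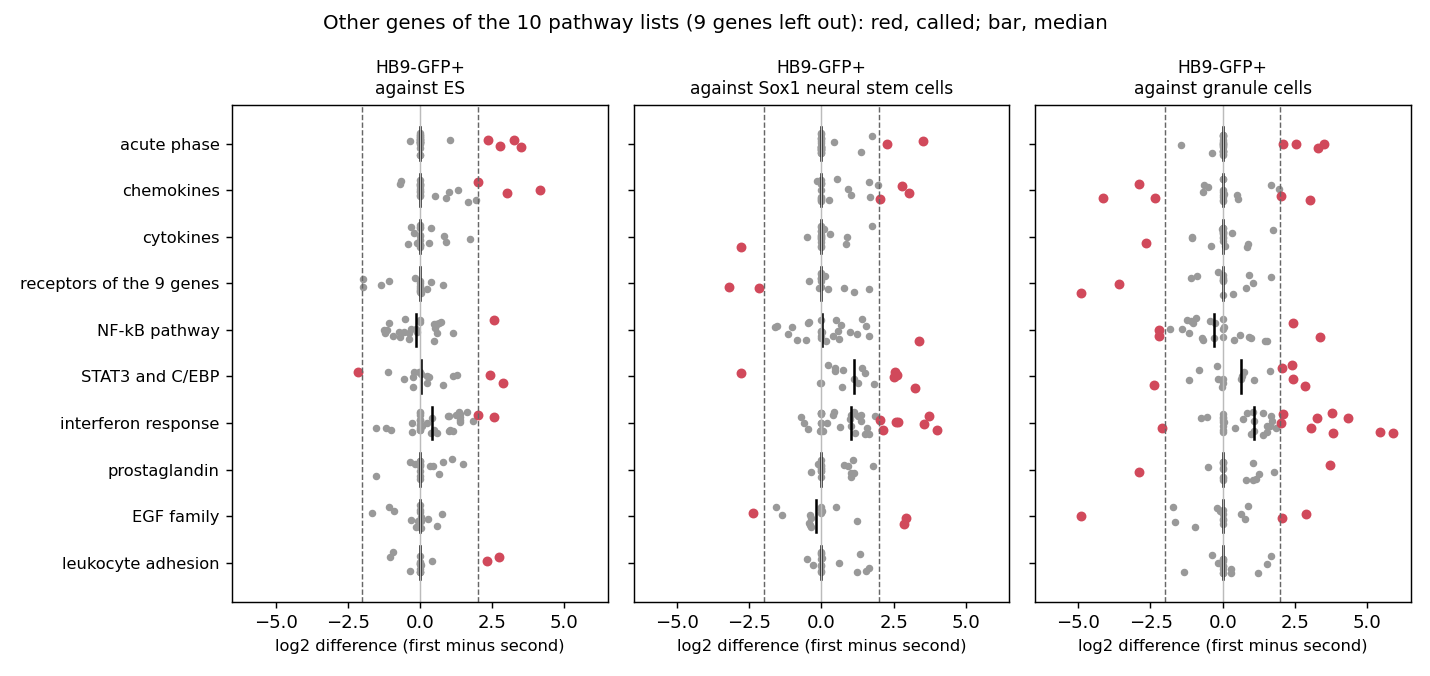
Log2 difference of the other genes of 10 pathway lists (rows, 1 point per gene) on the HB9-labelled array against each of the other 3 arrays (panels), with red for calls, a bar for each list's median and dashed lines at 4-fold. Against ES most points lie between the dashed lines, and 14 genes are called higher and 1 lower.

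Many fibroblast markers moved with the same array. Of 27 measured markers 24 were detected on the HB9-labelled array, 18 on the granule array, 11 on the Sox1 array and 10 with ES cells. Their summed signal was 52406 on the HB9-labelled array, 16215 on the granule, 14889 on the ES and 13382 on the Sox1 array. Fn1 (8058.9) and Sparc (3395.3) made up most of the ES sum, and were at 10804.8 and 7242.1 on the HB9-labelled array. Of 24 detected on the ES or the HB9-labelled array 13 were higher and 0 lower, beside 2.00% and 1.46% of all detected genes. Against the granule array 8 were higher and 1 lower, beside 9.21% and 12.3%. The lower gene was Pdgfra, at 275.4 against 2873.7. Acta2 and Tagln were highest on the Sox1 array, at 1551.3 and 320.5, against 636.2 and 103.9 on the HB9-labelled array. On the latter 5 markers were set apart, Dcn, Lum, Bgn, S100a4 and Mgp. The matrix protein gene Mgp was at 6205.5, against 70.7 or less on the other arrays. The part of fibroblast RNA in the levels of the 9 genes was not tested. In bulk RNA, fewer cells of a type and less RNA per cell cannot be told apart.

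Markers of leukocytes did not follow the HB9-labelled array. Of 11 measured neutrophil markers 0 were detected on any array. Of 18 macrophage and microglia markers 2 were detected on the HB9-labelled array, Laptm5 at 3385.8 and Cd68 at 182.9, and the same number on the ES array. The defining markers Csf1r, Ptprc, C1qa and Tyrobp were at 61.3, 27.2, 1.3 and 9.0 on the HB9-labelled array. On the granule array, where Il33, Ccl2, Cxcl1 and Icam1 were detected, 14 of the 18 were detected with a summed signal of 10975. Csf1r was at 4072.5 there and the astrocyte gene Gfap at 2224.6. The part of these cells in the granule values was not tested. Endothelial markers were detected in 4 of 11 on the HB9-labelled array and 5 on the ES array, and epithelial markers in 9 and 7 of 11.

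**Figure D4:**
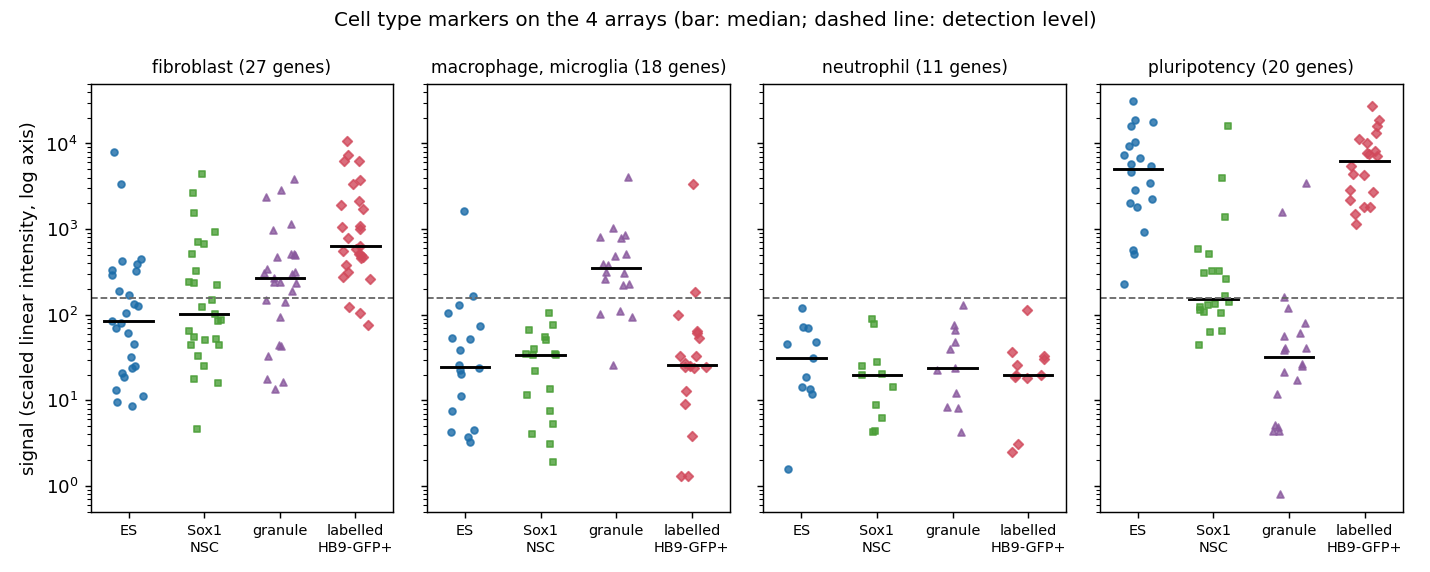
Signal (log axis) of fibroblast, macrophage and microglia, neutrophil and pluripotency markers on the 4 arrays, 1 point per gene, with the list's median as a bar and the detection level (157.5) dashed. By median, fibroblast markers are highest on the HB9-labelled array (24 of 27 detected) and macrophage markers on the granule array (14 of 18). Neutrophil markers lie under the detection level on every array.

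The genes with the most similar levels over the 4 arrays were found for each of the 9, by the Euclidean distance of log2 signals with values under the low level set to it. A distance over 4 points is a description. Where both genes lie at or under the low level on the other arrays, as Lcn2, Ptgs2 and S100a4 do, it is only their gap on the HB9-labelled array. That array was used to choose the 9 genes, so nothing is read from such a match. For Lcn2, Ptgs2 and Ifi27 the nearest gene was S100a4, at distances of 0.47, 0.14 and 0.53 log2 units, with signals of 1710.3 on the HB9-labelled array and 44.1 or less on the others. Saa3 lay nearest to AI662270 (0.54), followed by S100a4 (1.07) and Mgp (1.19). Ereg lay nearest to Rtp4 (0.08), Hp (0.09) and Thbs2 (0.19), and Ccl2 to the matrix genes Lum (0.63) and Col6a1 (0.87). The nearest genes to Il33 were Cav1 (0.85), Col6a1 (1.15) and Bgn (1.22), all of which were also detected on the granule array. Icam1 lay nearest to Lgals3 (1.07), at 3062.4 on the HB9-labelled array and 1958.7 on the ES array. Cxcl1 lay nearest to Nyap1 (0.30), which varied between 172.9 and 305.7.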

How the data were processed

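The authors deposited intensities for 45101 probe sets on 4 arrays. The submitters' processing notes name GCRMA, yet the values are linear with the same 2% trimmed mean (500) on every array, so the step that made them is uncertain and total RNA content cannot be compared. Symbols came from the platform's annotation table, and those listing more than 1 symbol were dropped. Genes absent from that table were not analysed here. Log2 values, the low level, detection and the rule of size were computed in Python 3.11.15 with pandas 2.3.3, and the rule was tested on simulated data. Named genes were the 9 genes, list genes set apart on the HB9-labelled array, up to 4 others per list called against ES, partners of the 9 genes and the 3 nearest genes. Genes outside the rule (Crp, Orm and fibrinogen genes, Il6, Il1a, Il1b, Tnf, Mx1, Mx2, Cxcl2, Ccl3, Ccl4, Nfkbia, Stat3, Socs3, Cebpb, Lif, Ifit2, leukocyte markers, Fn1, Sparc, Pdgfra, Acta2 and Tagln) were named after their values were seen. The 9 genes and all lists were chosen with earlier results of these data known.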

Additional observations from a re-analysis of the deposited data

How the results depend on the processing

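No paired analysis was possible because each group had 1 array. Of 9 alternative settings, 7 change the values themselves, and the 378 log2 differences of the 9 genes recomputed under them held 0 reversed calls, and 287 moved by less than the SD among probe sets of a gene. The other 91 moved by more. The counts of the 9 genes called against ES (6 to 7), Sox1 (7 to 8) and granule cells (6 to 7), and set apart (5 to 6), stayed within 1.5 times. Ptgs2 was lost where every probe set had to pass and Ccl2 against granule cells with an 8-fold rule. Of the 9 genes, 3 in place of 1 were called between granule and Sox1 cells with the low level 1 log2 unit down, with a 2-fold rule and without a floor (pseudocount 16). The 15, 24 and 35 pathway genes called against ES, Sox1 and granule cells became 6, 15 and 22 with the mean over probe sets and 6, 12 and 18 where every probe set had to pass. They became 52, 67 and 75 with a 2-fold rule and 4, 8 and 15 with an 8-fold rule. With the low level 1 log2 unit down, 23 were called against ES and 37 against Sox1, and with it 1 unit up, 7 against ES and 23 against granule cells. The share of higher calls over all genes against ES was 57.7%, and 67.9% with quantile normalization. With centring on reference genes it went from 44.8% to 34.5% against Sox1 and from 42.7% to 17.8% against granule cells, where the median of all genes went from 0.04 to -0.75. The same centring gave 66.4% in place of 54.3% for Sox1 against ES, 82.2% in place of 57.8% for granule against ES and 81.9% in place of 63.6% for granule against Sox1. The number of arrays limits the precision.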

Other observations

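The genes beside the 9 on their chromosomes were examined, by a rule added after the data were seen: the 3 nearest measured protein-coding genes on each side in the order of RefSeq (GRCm38.p6). Of 51 such genes 21 were detected on the HB9-labelled array and 2 were set apart there. One was Ccl11, which lies beside Ccl2 in a chemokine cluster. The other was Ifi27l2a, next to Ifi27, at 535.7 against 32.8 or less on the other arrays, while Ifi27l2b on the other side stayed between 59.2 and 79.1. Ccl7, between Ccl2 and Ccl11, was at 253.2 on the HB9-labelled array and at 52.6 or less elsewhere, short of 4-fold against the low level. Cxcl1 and Ereg lie on the same chromosome with 3 protein-coding genes between them, Cxcl2, Mthfd2l and Epgn, and none of these was set apart on that array. Icam4 and Icam5, beside Icam1, were undetected on all 4 arrays, at up to 79.3 and 55.6.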
